A study of Zea mays with 16 samples.

Results

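The maize inbred B73, whose genome has long served as the species' reference, was compared between leaves kept at 26 °C and leaves chilled at 4 °C. Its 4 libraries, 2 control and 2 chilled, are the B73 samples among 16 libraries from 4 lines, and they were taken by the line and treatment in their labels. No transgene or further agent is named, and all plants had days of 14 h at a light irradiance of 250 µmol m-2 s-1 and nights of 10 h. The sources used here do not give the age of the plants, the leaf sampled, the length of the chilling or whether the replicates are separate plants, so the p-values measure only the spread between these libraries, which may be technical.

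Maize comes from warm climates, and cold slows its photosynthesis, membrane transport and growth before any freezing occurs. Most of the leaf's messenger RNA is transcribed in the nucleus, while the plastid and the mitochondrion transcribe a small number of genes of their own. The libraries read the 3′ ends of RNA that a primer catches by its poly(A) tail. Nuclear messenger RNA carries such a tail as a mark of a mature transcript, whereas in plant organelles a tail is a short-lived addition that promotes the breakdown of the RNA. The organelle values below therefore count RNA that was primed in this way and not the whole of the organelle RNA.

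The tables list 46430 IDs, and the control libraries held 2582414 and 2428008 counts and the chilled libraries 2420903 and 1780344 (replicates in the order 1, 2 here and throughout). Replicates correlated across the tested IDs on log2(CPM + 1) at r = 0.941 between the controls and 0.945 between the chilled libraries, and control with chilled libraries at 0.746 to 0.817. Genes are not independent replicates, so these values describe the libraries. Nuclear IDs took 99.55% and 99.63% of the control and 99.81% and 99.63% of the chilled counts. The files pair no nuclear ID with a name, and of 23 gene lists 1 had a matched member, which was not tested. Markers of leaf cell types could not be checked, and 4 nuclear IDs, 2 in each direction, are named.

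Between the temperatures 3346 nuclear IDs were called as different, of which 1966 rose and 1380 fell when chilled, among 14386 tested. Over all classes, 3371 of 14449 tested IDs were called (23.3%), with 1983 that rose (13.7%) and 1388 that fell (9.61%). The test was edgeR's quasi-likelihood test of the 4 libraries, with an adjusted p under 0.05 as the call, and levels are CPM, counts scaled to a common library size, here after correction by TMM, a trimmed mean of log ratios between libraries. The median log2 fold change was 1.88 among nuclear IDs that rose and -1.63 among those that fell, and neither median moved when IDs at 0 in a group were set to the bound that 3 counts over that group allow. At least 8-fold rises numbered 442 and falls of that size 117, with IDs at 0 taken at their bound. Of the 3346 called nuclear IDs 159 changed less than 2-fold. In whole leaves, fewer cells of a type and less RNA per cell cannot be told apart.

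The balance of rises and falls rested on the scaling. With library totals in place of TMM, 4000 of the same 14449 IDs were called (27.7%), of which 1538 rose (10.6%) and 2462 fell (17.0%). The median log2 fold change of all tested IDs was -0.04 with TMM and -0.31 with library totals, and all changes below are relative to the TMM scale unless another is named. Without chilled replicate 2, the library with the fewest counts, 1240 of 15400 tested IDs rose (8.05%) and 667 fell (4.33%).

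**Figure D1:**
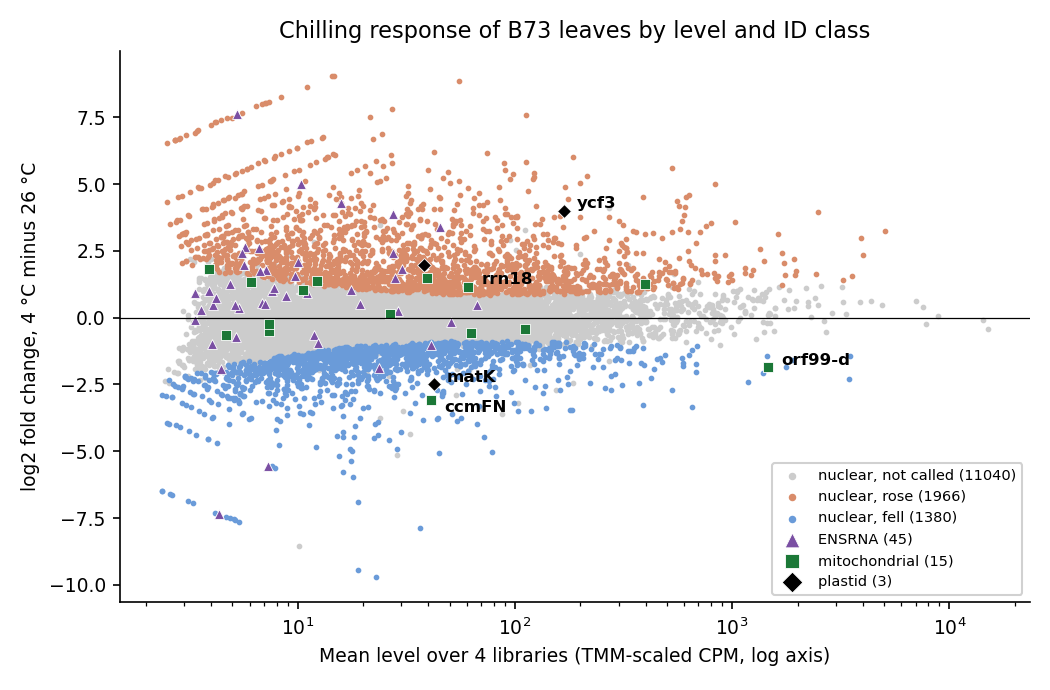
Each point is 1 of the 14449 tested IDs, with its mean level over the 4 libraries on a log axis and its log2 fold change (4 °C minus 26 °C), coloured by call and class. Nuclear IDs that rose (1966) and fell (1380) occur at low and high levels, and the slanted lines of points at the top and bottom are IDs with 0 or few counts in 1 group, whose fitted fold is no bound.

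The counts of chilled leaves were concentrated in fewer nuclear IDs. In each library the IDs were ranked by count, and the number needed to hold 50% of the nuclear counts was 891 and 756 in the control, against 657 and 538 in the chilled libraries. The groups did not overlap. The 500 most abundant nuclear IDs of each library held 40.9% and 43.3% of control counts and 45.6% and 48.7% of chilled counts. At the very top the order was different, since the 10 most abundant IDs held 8.19% and 9.25% at 26 °C, against 8.08% and 8.04% in the chilled libraries. With 2 libraries against 2, an exact permutation test cannot give a two-sided p below 0.333, so these shares are descriptions.

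**Figure D2:**
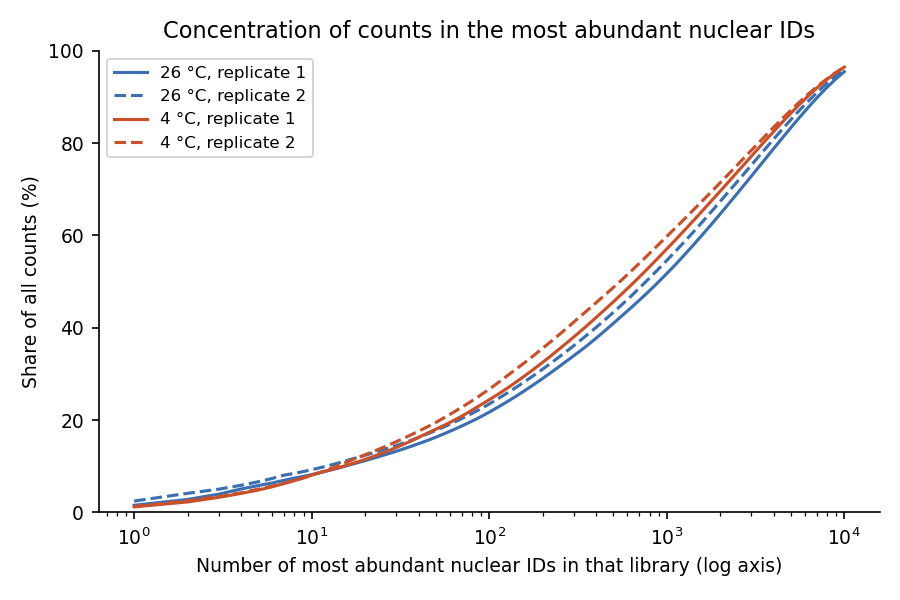
The line of each library gives the share of its counts (%) held by its most abundant nuclear IDs, against the number of IDs on a log axis. At 500 IDs both chilled libraries (45.6% and 48.7%) lie above both control libraries (40.9% and 43.3%), while at 10 IDs the chilled lines (8.08% and 8.04%) lie below the control lines.

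The number of nuclear IDs seen at all differed little between the temperatures. IDs with at least 1 count numbered 19784 and 19793 in the control, against 19954 and 19412 in the chilled libraries. Brought to the smallest depth of 1780344 counts, the expected numbers were 19117 and 19211 at 26 °C, against 19366 and 19412 in the chilled libraries. At that depth both chilled libraries lay slightly above both controls.

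The IDs called as risen held 9.10% and 9.47% of control counts and 26.6% and 30.2% of chilled counts. Those called as fallen held 13.7% and 12.8% of control counts and 3.96% and 3.28% of chilled counts. These shares describe the called sets, which were chosen on the same values. The 11040 tested nuclear IDs that were not called held 75.9% and 76.5% of control and 68.4% and 65.3% of chilled counts, and the 29760 untested nuclear IDs held 0.836% to 0.928% in every library.

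Among the 500 nuclear IDs with the highest control means and the 500 with the highest chilled means, 330 were shared (66.0% of each list). Of the control list 52 rose and 76 fell, and of the chilled list 190 rose and 10 fell. Over all tested IDs 13.7% rose and 9.61% fell. Among the 10 highest of each group 7 were shared, and of the 50 highest 30 were shared. Ranking by 1 group places IDs that are high in that group in its list, so the split of rises and falls in either list follows in part from the ranking.

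Nuclear IDs were therefore also grouped by their mean level over all 4 libraries. Of the 26580 IDs under 1 CPM, 5321 had any count and 0 could be tested. At 1 to under 10 CPM, 3495 of 6674 IDs were tested, of which 435 rose and 310 fell (21.3% called, beside 23.3% of all IDs). Some IDs in this range passed the low-count filter only through the group where they are high, which favours a call. With a filter of 1 CPM in 2 libraries, 609 rose and 357 fell of 6497, beside 3537 called of all 17992 IDs. With no filter 705 rose and 464 fell of 6674, beside 4116 called of all 23260 IDs. At 10 to under 100 CPM, 8984 were tested, and 1106 rose and 915 fell (22.5%). At 100 to under 1000 CPM, 1807 were tested, and 403 rose and 148 fell (30.5%). The 100 IDs of 1000 CPM or more had 22 that rose and 7 that fell (29.0%).

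The share of rises among the called IDs was 58.4% and 54.7% in the 2 lower ranges and 73.1% and 75.9% in the 2 higher ones. How far the lowest range lay below depended on the setting. Its share and that at 100 to under 1000 CPM were 71.2% and 74.7% with DESeq2. They were 69.7% and 69.8% when all 16 libraries shared the spread, and 72.4% and 77.0% at an adjusted p under 0.01. The gap was wider on library totals, at 40.7% and 53.2%. At 10 to under 100 CPM the share stayed below both higher ranges in each of these fits, at 61.6%, 60.4%, 62.6% and 33.5%. On library totals the lower ranges turned, with 367 rises and 535 falls at 1 to under 10 CPM and 822 rises and 1633 falls at 10 to under 100 CPM. The higher ranges kept more rises than falls on library totals, with 316 and 278 at 100 to under 1000 CPM and 21 and 8 at 1000 CPM or more. Whichever library was left out, rises outnumbered falls in every tested range, the lower ones included. Without control replicate 1 the share of rises was lower at 100 to under 1000 CPM than at 1 to under 10 CPM.

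**Figure D3:**
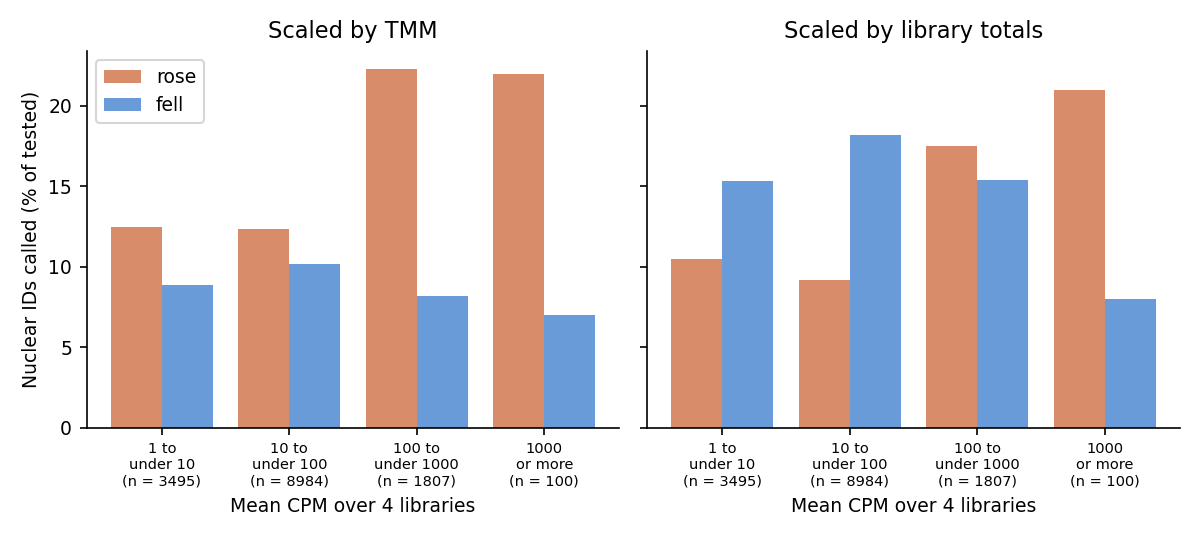
Bars give the percent of tested nuclear IDs that rose or fell in each range of mean CPM, on the TMM scale (left) and on library totals (right), with the number tested under each range. At 1000 CPM or more 22 IDs rose and 7 fell on the left and 21 and 8 on the right, whereas at 10 to under 100 CPM the counts were 1106 and 915 on the left and 822 and 1633 on the right.

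The whole distribution moved with level too. The median log2 fold change over all tested nuclear IDs was -0.17 at 1 to under 10 CPM, -0.05 at 10 to under 100, 0.19 at 100 to under 1000 and 0.62 at 1000 CPM or more. IDs of 1000 CPM or more took 20.5% and 22.4% of control counts and 23.9% and 25.6% of chilled counts. IDs of 10 to under 100 CPM took 34.2% and 31.7% in the control, against 29.1% and 27.5% in the chilled libraries. In both ranges the groups did not overlap. The mean covers both groups, so an ID with a strong rise can enter a higher range through its chilled level. An ID with a strong fall can enter one through its control level.

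Size and precision differed by range as well. The median log2 fold change of the called IDs was 2.67 for rises and -2.25 for falls at 1 to under 10 CPM, 1.71 and -1.48 at 10 to under 100, and 1.58 and -1.37 at 100 to under 1000. It was 1.95 and -1.86 at 1000 CPM or more. The medians at 1 to under 10 CPM include IDs that passed the low-count filter only through the group where they are high. The smallest called rise was 1.37 at 1 to under 10 CPM and 0.86 at 10 to under 100 CPM, and the median standard error (SE) fell from 0.56 to 0.36 between these ranges. Of the IDs with an at least 2-fold difference, 690 of 1435 were not called at 1 to under 10 CPM, 353 of 2260 at 10 to under 100, 29 of 535 at 100 to under 1000 and 10 of 39 at 1000 CPM or more.

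The chilled replicates differed less from each other at higher levels. Their median absolute log2 difference was 0.51 at 1 to under 10 CPM, 0.33 at 10 to under 100, 0.27 at 100 to under 1000 and 0.28 at 1000 CPM or more. Between the control replicates it was 0.47, 0.37, 0.38 and 0.40 in the same order. The called IDs were chosen by a test that weighs their change against this spread, so the sizes of their changes are no separate evidence.

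The nuclear ID that reached the highest chilled level among those that rose was Zm00001d000508. It stood at 1161 and 769.2 CPM at 26 °C, against 9093 and 9104 CPM in the chilled libraries. Both chilled libraries lay far above both controls and nearly coincided. Without overlap between the temperatures, 31.2% of all tested IDs were higher and 32.5% lower when chilled (63.7% together). The log2 fold change was 3.24 (SE 0.42, edgeR adjusted p 0.000115), and the ID remained called whichever library was left out. The call was lost when all 16 libraries of the series shared the estimate of the spread (adjusted p 0.103).

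Zm00001d022965 had the highest control level among those that fell. It held 2849 and 8659 CPM in the control, against 1435 and 922.9 CPM in the chilled libraries. The groups did not overlap, but in CPM the control replicates differed more from each other than the lower of them did from either chilled library. The log2 fold change was -2.29 (SE 0.51, edgeR adjusted p 0.00604, and 0.178 with all 16 libraries). It was -1.27 without control replicate 2 and -2.89 without control replicate 1, called in both.

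Some nuclear transcripts were seen at 1 temperature and not at the other. Of the tested nuclear IDs, 26 had no count in either control library and 15 had none in either chilled library. They passed the low-count filter only through the other group and so had to differ, and the number of them that was called is no result. With 3 counts per group as the floor, the median of their bounds was at least 16.5-fold higher for the 26 and at least 12.3-fold lower for the 15.

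Zm00001d037513 had 0 and 0 control counts and 18 and 79 chilled counts, which places it at least 46.3-fold higher when chilled (floor of 3 counts over the group, edgeR adjusted p 0.0417). Zm00001d023811 had 45 and 192 control counts and 0 and 0 chilled counts, at least 55.2-fold lower against the same floor (adjusted p 0.0386). Both were present in each library of their own group, with large differences between its replicates. They passed the low-count filter only through that group, so their adjusted p-values and calls are no separate evidence of a difference. The call for Zm00001d023811 was lost without chilled replicate 2 (adjusted p 0.0668), and both calls were lost with a filter of 1 CPM in 2 libraries (adjusted p 0.0547 and 0.0525) and with glmTreat against a fold of 2 (0.0959 and 0.0889). The call for Zm00001d037513 was also lost with the spread of all 16 libraries (adjusted p 0.0545). Floors and counting intervals leave out the spread between replicates. They also take each read as a separate count, and no molecular identifiers are counted here.

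Among IDs beginning with ENSRNA, which are Ensembl's noncoding RNA models, 1765 are listed, 306 had a count and 45 were tested. Of the 45, 15 rose and 5 fell, beside 13.7% and 9.61% of all IDs, and 25 were not called. Their median log2 fold change was 0.92, against -0.04 over all tested IDs. The share that rose and this median were lower under looser filters. With a filter of 1 CPM in 2 libraries, 20 of 157 rose and 7 fell, beside 2119 and 1418 of all 17992 IDs. The class median was then 0.46. With no filter 22 of 306 rose and 9 fell, beside 2336 and 1780 of all 23260 IDs, and the class median was 0.37. On library totals 11 rose and 5 fell, and without chilled replicate 2 the count was 8 and 3 of 66. The class was scarce, at 0.0799% and 0.0717% of control counts and 0.0940% and 0.101% of chilled counts. None of the 45 has a name in the sources used here. The largest fitted rise was of an ID with 0 and 0 control counts and 27 and 14 chilled counts. The largest fitted fall was of one with 29 and 19 control counts and 0 and 0 chilled counts. Both are among the called IDs, but each passed the low-count filter only through the group where it is high and so had to differ. Their calls are therefore no separate evidence, and their fitted folds are no bound.

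The 154 microRNA precursor IDs had 0 counts in all 4 libraries. A count of 0 allows up to 1.16 to 1.69 CPM per ID, taking 3 counts of each library's total. Mature microRNAs, which have no poly(A) tail, are not primed in such libraries. The reason for the 0 counts of the precursor IDs was not tested.

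The plastid transcripts were few, and ycf3 and matK moved in opposite directions. Of 157 plastid IDs, 12 had a count and 3 passed the low-count filter, of which ycf3 rose, matK fell and trnK was not called. In all, 3371 of 14449 tested IDs (23.3%) were called in either direction. Organelle reads can also come from nuclear copies of organelle DNA. The class took 0.0148% and 0.0114% of control counts and 0.0224% and 0.0543% of chilled counts. The genes whose RNA is most plentiful in leaf plastids were absent: psbA, psaA, psaB, psbB, psbD and atpB had 0 counts in every library, and rbcL and psbC had 1 count each, in control replicate 1.

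The plastid gene ycf3 (ZemaCp024) encodes a protein that helps to assemble photosystem I. It had 14.0 and 25.7 CPM at 26 °C, against 224.7 and 405.7 CPM in the chilled libraries. Both chilled libraries exceeded both controls by a wide margin. The log2 fold change was 3.99 (SE 0.43, edgeR adjusted p 2.39e-05), and the call held in all 15 alternatives run for it. Reads of ycf3 made up 10.7% and 23.5% of all plastid counts in the control, against 94.1% and 65.1% in the chilled libraries.

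The plastid gene matK (ZemaCp003) encodes a maturase, a protein that takes part in splicing introns of plastid RNA. It fell from 83.2 and 59.3 CPM to 5.74 and 20.6 CPM, and the groups did not overlap. The log2 fold change was -2.50 (SE 0.47, edgeR adjusted p 0.00251). Leaving out any 1 library kept the call, with -1.77 without chilled replicate 1 and -3.61 without chilled replicate 2, and sharing the spread of all 16 ended it (adjusted p 0.164). The gene held 63.7% and 54.2% of plastid counts at 26 °C, against 2.40% and 3.31% in the chilled libraries. Without ycf3 the plastid IDs held 0.0132% and 0.00873% of control counts and 0.00132% and 0.0189% of chilled counts, so the rest of the class overlapped between the temperatures.

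The gene trnK (ZemaCt121) encodes a lysine transfer RNA, and matK lies within its intron, so some reads may be counted for either. It had 14.7 and 15.8 CPM in the control, against 5.30 and 116.1 CPM in the chilled libraries. The controls nearly coincided, while the chilled replicates lay on either side of them (log2 fold change 1.96, SE 1.49, edgeR adjusted p 0.442). Without chilled replicate 1 it was called as risen (2.94, adjusted p 2.41e-09). By raw counts, matK outnumbered trnK by 5.67 and 3.75 to 1 in the control, and the ratio was 1.08 and 0.178 in the chilled libraries. The exact 95% intervals of the ratio ran from 2.63 to 8.04 over both controls and from 0.118 to 2.60 over both chilled libraries.

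Of the plastid IDs under the filter, atpF, a subunit of the plastid ATP synthase, had 7 and 7 control counts and 4 and 100 chilled counts. Chilled replicate 2 alone held the excess. The cytochrome b6f subunit gene petD had 26 and 6 control counts and 0 and 2 chilled counts, a control level 11.2 times the chilled one (95% counting interval 2.85 to 96.2). Counts were 6 and 4 against 2 and 12 for ndhD, of the NDH complex of the thylakoid. They were 6 and 5 against 1 and 7 for psaJ, of photosystem I, and 6 and 0 against 0 and 4 for rps16, a ribosomal protein. For these 3 the temperatures overlapped. As background, trnK, rps16, atpF, ycf3 and petD are all genes with introns. They did not move together, since ycf3 rose, petD was lower when chilled, and trnK, rps16 and atpF overlapped between the temperatures. A role of introns was not tested.

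The mitochondrial share of counts was lower in the chilled libraries, and 1 open reading frame held most of that difference. Mitochondrial IDs took 0.354% and 0.289% of control counts and 0.0715% and 0.212% of chilled counts, which do not overlap. The open reading frame orf99-d (ZeamMp050), whose function is not annotated, held 7462 of 9150 and 5116 of 7004 mitochondrial counts in the control libraries, against 525 of 1732 and 1601 of 3766 in the chilled ones. Without it the class took 0.0654% and 0.0778% of control counts and 0.0499% and 0.122% of chilled counts, and the groups overlapped. Of 208 mitochondrial IDs 55 had a count and 15 were tested, of which 1 rose (rrn18), 2 fell (ccmFN and orf99-d) and 12 were not called, beside 13.7% of all tested IDs that rose and 9.61% that fell.

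The level of orf99-d was 2543 and 2023 CPM at 26 °C, against 231.8 and 1033 CPM in the chilled libraries. Both chilled values lay below both controls, and they differed more from each other than the controls did. The log2 fold change was -1.86 (SE 0.59, edgeR adjusted p 0.0463). The call was lost without chilled replicate 1 (log2 fold change -1.13, adjusted p 0.164) and with DESeq2 (adjusted p 0.184), 2 of the 6 alternatives among 15 that ended it. Without chilled replicate 2 the log2 fold change was -3.28. Of its neighbours in the RefSeq table, the transfer RNA pseudogene trnR-a had 0.341 and 6.72 CPM in the control, against 7.06 and 10.3 CPM in the chilled libraries (adjusted p 0.276). The ATP synthase subunit gene atp4, which overlaps the end of trnR-a there, was under the filter, with 25 and 5 control counts and 4 and 5 chilled counts.

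**Figure D4:**
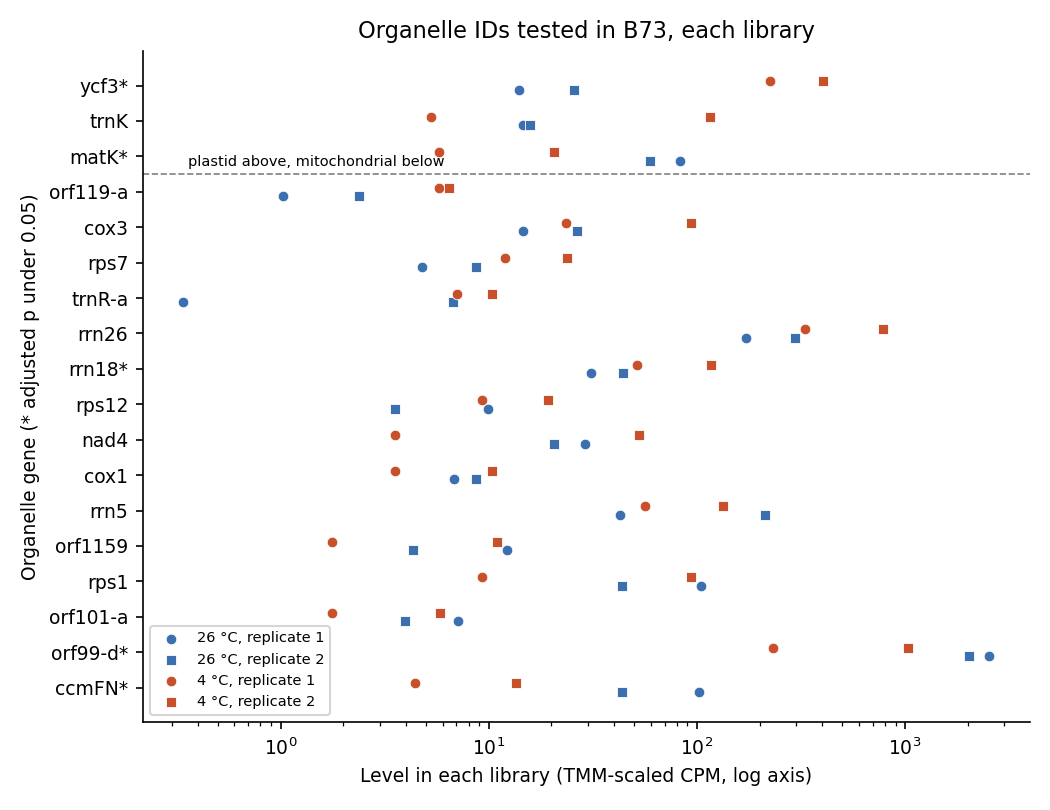
Points give the TMM-scaled CPM of each of the 18 tested organelle IDs in each of the 4 libraries on a log axis, and an asterisk marks an adjusted p under 0.05 in edgeR. For ycf3 both chilled points (224.7 and 405.7 CPM) lie above both controls and for ccmFN both (4.42 and 13.5 CPM) lie below them, while for trnK the chilled points (5.30 and 116.1 CPM) lie on either side of the controls.

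The gene ccmFN (ZeamMp098) encodes part of the machinery that attaches heme to cytochrome c. It fell from 102.2 and 43.5 CPM to 4.42 and 13.5 CPM, with both chilled libraries below both controls. The log2 fold change was -3.09 (SE 0.55, edgeR adjusted p 0.00235), which held without any 1 library but not with the spread of all 16 (adjusted p 0.0881). It was -2.36 without control replicate 1, -2.41 without chilled replicate 1 and -4.02 without chilled replicate 2. Next to it in the RefSeq table lies rps1, a protein of the mitochondrial ribosome, with 104.3 and 43.5 CPM at 26 °C, against 9.27 and 94.2 CPM in the chilled libraries (log2 fold change -0.56, SE 1.20, adjusted p 0.798). The chilled replicates of rps1 differed more than the control replicates, and without chilled replicate 2 it was called as fallen (-2.97, adjusted p 0.000128).

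The counts of ccmFN and rps1 were nearly equal in the control, at 300 and 306 in replicate 1 and 110 and 110 in replicate 2. In the chilled libraries they were 10 and 21 in replicate 1 and 21 and 146 in replicate 2. The ratio of ccmFN to rps1 was thus 0.980 and 1.0 in the control, against 0.476 and 0.144 in the chilled libraries. The exact 95% interval in chilled replicate 2 (0.0864 to 0.228) lay apart from those of both controls, and that in chilled replicate 1 (0.200 to 1.06) overlapped them.

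Of the 3 tested mitochondrial ribosomal RNAs 1 passed the test. The small-subunit RNA rrn18 had 31.0 and 44.3 CPM at 26 °C, against 51.7 and 117.4 CPM in the chilled libraries (log2 fold change 1.16, SE 0.39, edgeR adjusted p 0.0446). On library totals it missed the threshold (log2 fold change 0.88, adjusted p 0.0740), as it did in 9 of 15 alternatives in all. Without chilled replicate 2 the log2 fold change was 0.47 (adjusted p 0.565) and without control replicate 1 it was 0.91 (adjusted p 0.0643). The large-subunit RNA rrn26 had 172.8 and 297.4 CPM in the control, against 330.2 and 784.2 CPM in the chilled libraries, without overlap (log2 fold change 1.24, SE 0.43, adjusted p 0.0510). The count ratio of rrn26 to rrn18 was 5.57 and 6.71 at 26 °C, against 6.39 and 6.68 in the chilled libraries, and the 95% intervals of all 4 overlapped. The 5S RNA rrn5 had 42.9 and 212.4 CPM in the control, against 56.5 and 132.9 CPM in the chilled libraries, so the temperatures overlapped (adjusted p 0.762). It was called as fallen without control replicate 1 (-1.19, adjusted p 0.00357) and as risen without control replicate 2 (1.13, adjusted p 0.0134).

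The 3 tested subunits of the respiratory chain did not pass the test. Of the 6 complex I, 1 complex III and 3 complex IV IDs listed, 1, 0 and 2 were tested. The complex I subunit nad4 had 29.0 and 20.6 CPM at 26 °C, against 3.53 and 52.9 CPM in the chilled libraries (log2 fold change 0.12, SE 1.12, edgeR adjusted p 0.955). The cytochrome c oxidase subunit cox3 had 14.7 and 26.5 CPM in the control, against 23.4 and 93.5 CPM in the chilled libraries (log2 fold change 1.49, SE 0.62, adjusted p 0.130). The oxidase subunit cox1 had 6.82 and 8.70 CPM at 26 °C, against 3.53 and 10.3 CPM in the chilled libraries. In all 3 the chilled replicates enclosed or overlapped the controls. Without chilled replicate 2, nad4 was called as fallen (-2.78, adjusted p 0.000835).

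Of the mitochondrial ribosomal proteins, rps7 had 4.77 and 8.70 CPM in the control, against 11.9 and 23.9 CPM in the chilled libraries, without overlap (log2 fold change 1.39, SE 0.49, edgeR adjusted p 0.0527). The level of rps12 was 9.88 and 3.56 CPM at 26 °C, against 9.27 and 19.4 CPM in the chilled libraries (adjusted p 0.190). Among the open reading frames, orf119-a had 1.02 and 2.37 CPM in the control, against 5.74 and 6.45 CPM in the chilled libraries (log2 fold change 1.83, SE 0.64, adjusted p 0.0530). The levels of orf101-a and orf1159 overlapped between the temperatures (adjusted p 0.506 and 0.669).

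Mitochondrial IDs under the filter included rbcL-ct, annotated as a pseudogene, whose name is that of the plastid gene for the large subunit of Rubisco. It had 29 and 8 control counts and 2 and 1 chilled counts, a control level 8.61 times the chilled one (95% counting interval 2.73 to 43.7). Reads of such a sequence can be shared with the plastid gene, and the sources used here do not say how reads that align in several places were counted. Counts of nad3, a complex I subunit beside rps12, were 2 and 4 at 26 °C, against 4 and 3 in the chilled libraries. The intron maturase mat-r had 4 and 3 against 2 and 1 counts. The heme attachment gene ccmFC had 5 and 2 against 1 and 2, and orf140-b had 4 and 5 against 4 and 4.

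The chilled replicates were less alike in organelle than in nuclear transcripts. Over the tested IDs their median absolute log2 difference was 1.42 for mitochondrial and 1.76 for plastid IDs, against 0.36 for nuclear IDs. Between the control replicates it was 0.83, 0.48 and 0.40. Chilled replicate 1 was the lowest of the 4 libraries for 7 of the 15 mitochondrial and 2 of the 3 plastid IDs. It was the lowest for 2917 of the 14386 tested nuclear IDs and 5 of the 45 tested ENSRNA IDs. When chilled replicate 2 was left out, 0 mitochondrial IDs rose and 4 of 17 fell, beside 8.05% and 4.33% of all IDs in that fit. When chilled replicate 1 was left out 4 rose and 1 of 17 fell, beside 11.1% and 6.51% of all IDs. Each of these fits tested 17 mitochondrial IDs, with a median log2 fold change of -1.16 without chilled replicate 2 and 0.43 without chilled replicate 1. The low-count filter was applied anew in each fit, so the members of these sets may differ. In the main fit the median over the 15 tested mitochondrial IDs was 0.12.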

How the data were processed

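Libraries were made with a QuantSeq forward 3′ kit and sequenced on an Illumina NextSeq, per the labels' protocols. The authors deposited raw counts for each library, as whole reads assigned to a gene ID. STAR and edgeR are named in the submitters' processing notes. The sources used here do not give versions, genome build, annotation or use of strand, so overlapping or antisense genes cannot be told apart. The deposited tables of scaled counts were not used. Names of organelle IDs came from the RefSeq table of assembly Zm-B73-REFERENCE-NAM-5.0 by locus tag (all 208 mitochondrial and 157 plastid IDs matched). No row lacks a gene ID.

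The 4 B73 libraries were fitted with edgeR 4.0.16 in R 4.3.3 (filterByExpr with its minimum count of 10, TMM, estimateDisp, robust glmQLFit, glmQLFTest, two-sided, Benjamini-Hochberg adjusted p under 0.05, no covariate, no fold minimum). SE is the log2 fold change divided by the root of the F statistic. Differences between replicates used log2(CPM + 0.5). Tried as alternatives were voom of limma 3.58.1, DESeq2 1.42.0, other scalings, filters, thresholds and libraries, a replicate block, and each library left out; library totals were added after the data were seen. Nuclear IDs named were the called, non-overlapping ID with the highest level and that with the largest change (at least 10 CPM in the higher group) in each direction, and tested organelle IDs are all named. The members, lists and ranges were chosen with earlier results of these data known. Exact intervals are Clopper-Pearson at 95%.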

Additional observations from a re-analysis of the deposited data

How the results depend on the processing

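Main counts were 3371 called IDs, 1983 that rose and 1388 that fell. The count was 1681 (1134 rose and 547 fell) at an adjusted p under 0.01, 1195 (866 and 329) with glmTreat against a fold of 2, and 602 (385 and 217) when all 16 libraries shared the spread. DESeq2 called 791 IDs as fallen, and library totals gave 2462. With 1 library left out, the called IDs ran from 1907 to 3940, those that rose from 1240 to 2369 and those that fell from 667 to 1571; the lone library of a group was then assumed to vary like the other group. The lowest of each came without chilled replicate 2, the one omission that moved the total by over 1.5 times. The other alternatives stayed within 1.5 times. The cause of these shifts was not tested, apart from the stricter thresholds, which call fewer IDs by construction.

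A replicate block by the number in the titles gave 3160 called IDs (1893 rose and 1267 fell). The deviations of same-numbered libraries correlated at -0.0503 across IDs. With 1 difference per group, this value cannot settle whether such libraries share more than a number. The sample descriptions give chilled replicate 2 the number 3, so the shared number is itself in doubt. The block raised rps7, rrn26 and cox3 past the threshold (adjusted p 0.0347, 0.0257 and 0.0224).

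Of 334 values of named IDs under alternatives, 272 kept direction and side of the threshold, 27 lost the call, 21 gained one in the same direction and 14 changed sign, 2 of which were also called (nad4 without chilled replicate 2 and rrn5 without control replicate 2). With 1 library left out, calls in the same direction were gained by rps12, rps7, cox3, rrn26, trnR-a, rps1, rrn5 and trnK. All sign changes were in mitochondrial IDs and trnK, none called in the main test. For nad4 the log2 fold change was -1.04 with voom, -0.43 with the block and -0.19 on library totals. With 1 library left out it ran from -2.78 to 1.10 for nad4, -1.62 to 0.0628 for orf101-a, -2.20 to 0.43 for orf1159, -2.97 to 0.36 for rps1, -1.10 to 0.43 for cox1, -1.19 to 1.13 for rrn5 and -1.50 to 2.94 for trnK. Calls for Zm00001d000508, Zm00001d022965, ccmFN and matK were lost only when all 16 libraries shared the spread. Per nuclear count in place of all counts, the class shares moved by less than the spread of replicates.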
